A study of Mus musculus with 25 samples.

Results

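The genes described here mark the less common endocrine cells of the pancreatic islet. They are the hormone genes of delta cells (Sst), PP cells (Ppy and Pyy) and epsilon cells (Ghrl), together with Hhex, Rbp4, Lepr and Ghsr, which are used as delta cell genes. They were taken by symbol from the gene table, and ATAC-seq peaks were taken where the authors' annotation named one of them as the nearest gene. This gave 8 of 24439 genes and 18 of 65053 consensus peaks. The samples were mouse islet cell lines and no delta, PP or epsilon cells were sorted. αTC1 (alpha TC1 clone 6) is a clonal glucagon-producing line and βTC6 (beta-TC-6) an insulin-producing line, both made from islet tumours of transgenic mice and each grown in its own medium, so the line and its medium cannot be told apart. RNA-seq covered 3 libraries per line, and ATAC-seq covered 5 libraries per line and 9 mixtures from 10% to 90% αTC1 cells, each mixture being 1 library. The labels do not say that replicates came from separate cultures, so p-values measure only the spread between these libraries, which may be technical.

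Somatostatin, the product of Sst, is released by delta cells and restrains the secretion of insulin and glucagon by their neighbours. Pancreatic polypeptide and peptide YY come from the neighbouring genes Ppy and Pyy and act through neuropeptide Y receptors, whereas ghrelin, the product of Ghrl, acts through the receptor encoded by Ghsr. In islets Ghsr is known from delta cells, where Hhex encodes a homeodomain factor needed to keep delta cell identity, Rbp4 encodes the plasma carrier of retinol and Lepr encodes the leptin receptor.

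The promoters of the hormone genes are shown first, because Sst and Ppy were the hormone genes of the 8 that passed the expression filter, and that of Rbp4 because a peak lay over it. Promoter sequences of all 8 genes were found in RefSeq (table on GRCm38.p6), and each of their 14 entries matched the mm9 genome once. Exact matches were searched on both strands to TGACGTCA (the cAMP response element), TAATTA (a homeodomain core), CAGATG (an E-box), TGTTTAC (a forkhead site) and TATAAA (the TATA box). Capitals mark a match in the 250 bases before the start, read 5′ to 3′ on the strand of the gene. The Sst sequence is at chr16:23890931-23891180, that of Ppy at chr11:101962634-101962883 and that of the second Rbp4 entry at chr19:38199302-38199551, all on the minus strand.
Sst: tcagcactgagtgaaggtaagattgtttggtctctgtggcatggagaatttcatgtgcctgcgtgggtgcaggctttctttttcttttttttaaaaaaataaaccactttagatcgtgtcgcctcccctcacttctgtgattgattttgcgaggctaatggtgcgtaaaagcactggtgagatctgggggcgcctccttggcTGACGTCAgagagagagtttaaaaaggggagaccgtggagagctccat
Ppy: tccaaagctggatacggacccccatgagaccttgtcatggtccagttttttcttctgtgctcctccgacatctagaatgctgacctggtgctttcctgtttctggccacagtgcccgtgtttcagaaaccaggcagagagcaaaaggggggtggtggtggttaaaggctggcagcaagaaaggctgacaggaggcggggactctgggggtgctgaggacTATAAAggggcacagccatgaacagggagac
Rbp4: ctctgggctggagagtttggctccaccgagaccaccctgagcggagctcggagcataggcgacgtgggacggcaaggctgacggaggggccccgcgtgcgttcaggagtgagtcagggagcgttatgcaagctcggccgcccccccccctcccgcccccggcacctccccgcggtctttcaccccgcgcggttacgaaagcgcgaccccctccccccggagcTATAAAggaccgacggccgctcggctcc
The Sst promoter held a full cAMP response element whose first base lay 48 bases before the start, and 1.55% of the 32851 RefSeq promoters held this motif in a window of the same length. The Ppy and Rbp4 promoters held a TATA box 31 and 28 bases before the start, a motif found in 12.4% of promoters. The first Rbp4 entry, not shown, held a forkhead site 241 bases before the start, a motif found in 3.17% of promoters. A peak also lay over the Ghsr promoter, which is not shown and held none of the motifs searched. The match describes letters in the window and not a site in use.

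RNA-seq libraries held between 21954031 and 26033482 expected counts, and pure ATAC-seq libraries held between 4397851 and 10374903 reads in peaks. The lines carried their hormone genes: FPKM (fragments per kilobase of transcript, scaled to the size of the library) of Gcg, the glucagon gene, was 12929 ± 1282 (SD, n = 3) in αTC1 and 229 ± 50.4 in βTC6, and that of Ins2, an insulin gene, was 0.34 ± 0.26 and 30081 ± 6150. All 4 alpha identity genes tested were called higher in αTC1 and all 6 beta identity genes higher in βTC6. In both lines ATAC-seq replicates 1 to 3 were closer to each other (chi-square per degree of freedom of their reads 2.05 to 2.55) than to replicates 4 and 5 (4.47 to 11.3). Replicates 4 and 5 differed by 4.72 in αTC1 and by 8.52 in βTC6, where they were no closer to each other than to replicates 1 to 3. Results on called peaks are also given within replicates 1 to 3 and within replicates 4 and 5. In RNA-seq this value was 2.105 between αTC1 replicates 1 and 2 and 19.1 to 43.4 between the other pairs of a line, and no library was a copy of another.

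The first comparison asked which of these genes were transcribed in either line and whether their levels differed. Sst and Ppy were transcribed in βTC6 and nearly or wholly silent in αTC1, Rbp4 and Ghsr were higher in αTC1, and the other 4 genes stayed under 1 FPKM in every library. A gene was tested with edgeR's quasi-likelihood test when its FPKM was at least 1 in all libraries of either line, and called when its Benjamini-Hochberg FDR was below 5% and its log2 fold change (βTC6 over αTC1) exceeded 2 in either direction. Sst, Ppy, Rbp4 and Ghsr were tested and all 4 were called, 2 higher in each line. Among all 12195 genes tested, 14.3% were called, 10.2% higher in βTC6 and 4.08% higher in αTC1. The genes that passed the filter were those with a level in at least 1 line, so their calls are not a property of the list of 8. Sst and Ppy passed only through βTC6 and Ghsr only through αTC1, which fixed their direction.

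**Figure D1:**
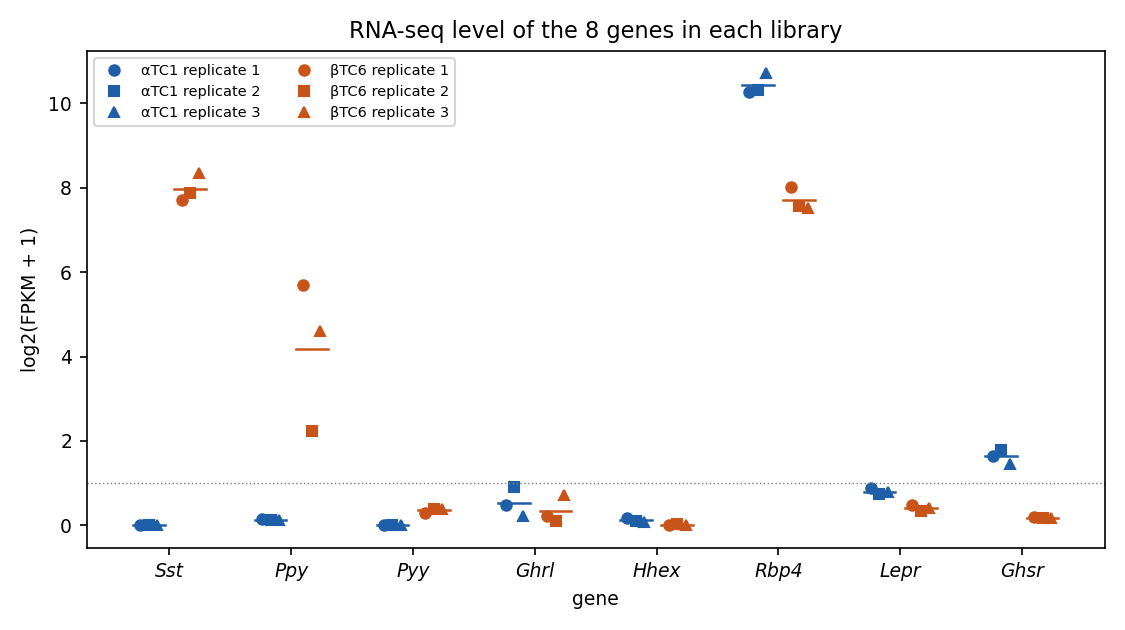
Level of each gene as log2(FPKM + 1) in the 3 αTC1 (blue) and 3 βTC6 (orange) RNA-seq libraries, with marker shapes for replicates, short lines for group means and a dotted line at 1 FPKM. Sst and Ppy stand above the line in βTC6 alone, Ghsr in αTC1 alone and Rbp4 in both lines.

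Among the 4 hormone genes of the set, Sst (chr16:23889667-23890930, minus strand) was the highest in βTC6. Its FPKM was 207, 234 and 325 in βTC6 replicates 1, 2 and 3, and it was listed at 0 in every αTC1 library. These values rest on 3015, 3430 and 4529 counts in βTC6 and none in αTC1. The groups did not overlap, as was the case for 77.7% of all genes tested. Set against a floor of 3 counts per library in αTC1, Sst was at least 1141-fold higher in βTC6 (edgeR adjusted p = 2.69e-07). With a mean of 256 ± 61.9 FPKM, Sst ranked 268 of 24439 genes in βTC6. Bulk libraries cannot tell whether a few cells held much Sst RNA or many cells held little.

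Ppy (chr11:101961244-101962633, minus strand) was also higher in βTC6, with a far wider spread. Its FPKM was 50.8, 3.70 and 23.4 in βTC6 replicates 1, 2 and 3, next to 0.10, 0.09 and 0.09 in αTC1, where each library held a single count. The groups did not overlap, and the highest βTC6 library was 13.7 times the lowest. Summed counts, scaled to library size, were 284 times those of αTC1, with an exact 95% counting interval from 96.8 to 1379 that does not cover the spread between libraries. The edgeR log2 fold change was 8.03 (SE 1.25, adjusted p = 0.000312), and it lay between 7.09 and 8.53 when single libraries were left out.

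The spread of Ppy among βTC6 libraries was shared by few genes. Over the 11610 genes that reached 1 FPKM in every βTC6 library, the ratio of the highest to the lowest library had a median of 1.19, and only Fosb (32.4) and Pdyn (15.7) exceeded that of Ppy. Sst had a ratio of 1.57 and Rbp4 one of 1.41. Pdyn, which encodes the opioid precursor prodynorphin, was also the gene nearest to Ppy in Euclidean distance of log2(FPKM + 1) over the 6 libraries. Its FPKM was 59.8, 3.81 and 24.6 in βTC6 replicates 1, 2 and 3 and at most 0.12 in αTC1. The distance was 0.26 for Pdyn, 2.05 for Egfr and 2.09 for Cdhr5, the next in order among 11609 candidates. Pdyn thus stood as low as Ppy in βTC6 replicate 2 and as high in replicate 1, and the ratio comparison was made after the Ppy values had been seen.

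**Figure D2:**
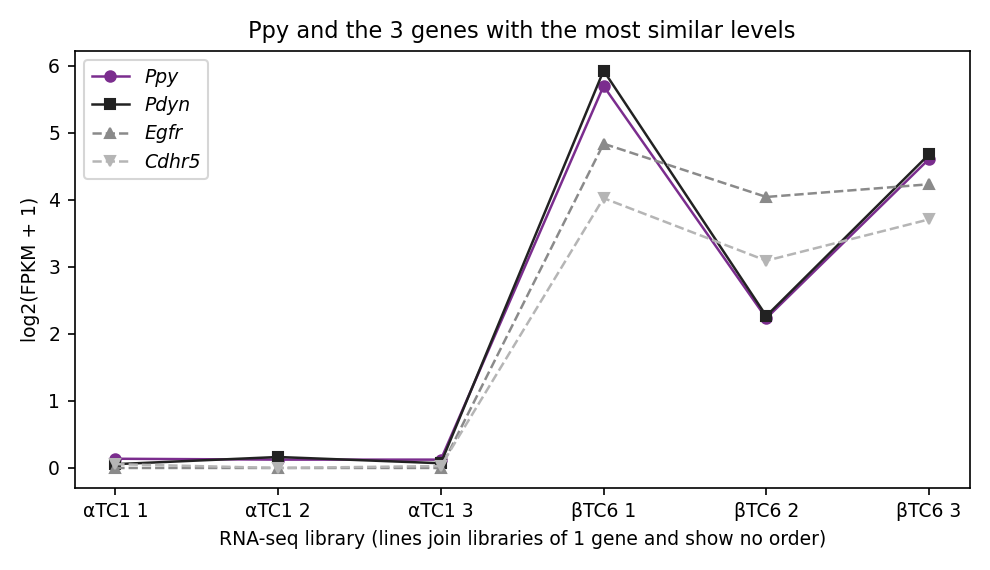
Level as log2(FPKM + 1) of Ppy and of the 3 genes nearest to it over the 6 RNA-seq libraries, with lines joining the libraries of a gene. Ppy and Pdyn nearly coincide, at 3.70 and 3.81 FPKM in βTC6 replicate 2 and 50.8 and 59.8 in replicate 1, while Egfr and Cdhr5 vary less.

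Pyy and Ghrl were near the limit of detection. Pyy (chr11:101967990-101969146, minus strand) lies next to Ppy and reached 0.23, 0.30 and 0.31 FPKM in βTC6, from 3, 4 and 4 counts. It was listed at 0 in the 3 αTC1 libraries, so its βTC6 counts lay at or just above the floor of 3. Ghrl (chr6:113666113-113669874, minus strand) had 0.40, 0.88 and 0.16 FPKM in αTC1 and 0.16, 0.08 and 0.65 in βTC6, from 1 to 7 counts per library. Its groups overlapped, and the log2 fold change in a fit without the FPKM filter was -0.20 (SE 0.78, edgeR adjusted p = 0.832). A difference in Ghrl was not detectable at this depth. In the same fit Pyy had a log2 fold change of 4.89 (SE 1.24, adjusted p = 0.00831).

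Of the delta cell genes, Rbp4 (chr19:38191110-38199811, minus strand) was high in both lines and higher in αTC1. Its FPKM was 1240, 1273 and 1678 in αTC1 and 258, 189 and 183 in βTC6. No αTC1 library overlapped with βTC6, and αTC1 was 6.66-fold higher by mean FPKM (edgeR log2 fold change -2.68, SE 0.17, adjusted p = 9.60e-07). Rbp4 ranked 20 of all genes in αTC1 and 331 in βTC6. In βTC6 its range overlapped that of Sst.

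Ghsr (chr3:27270273-27276932, plus strand), which encodes the ghrelin receptor, was low in αTC1 and lower in βTC6. Its FPKM was 2.14, 2.47 and 1.73 in αTC1 and 0.14, 0.12 and 0.13 in βTC6, from 195 to 270 counts and 14 to 16 counts per library. Both groups stood apart, and αTC1 was 16.3-fold higher by mean FPKM (edgeR log2 fold change -3.97, SE 0.23, adjusted p = 5.67e-07). On log2(FPKM + 1) with limma the difference was -1.46, under the fold-change threshold of 2. The receptor was thus higher in the line without Sst transcripts.

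Hhex and Lepr stayed below the filter. Hhex (chr19:37507377-37515218, plus strand) had 4, 6 and 3 counts in αTC1 and 0, 2 and 0 counts in βTC6, corresponding to at most 0.13 FPKM. Its counts over the group were 13 in αTC1 and 2 in βTC6, which gave a log2 fold change of -2.56 (SE 0.98, adjusted p = 0.0401) in the edgeR fit without the FPKM filter. Both lines thus held nearly no Hhex transcripts. Lepr (chr4:101390009-101487957, plus strand) had 0.83, 0.67 and 0.72 FPKM in αTC1 and 0.40, 0.27 and 0.32 in βTC6. The Lepr groups did not overlap, and its log2 fold change without the filter was -1.13 (SE 0.24, edgeR adjusted p = 0.00170), under the fold threshold.

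By mean FPKM, the order in αTC1 was Rbp4, Ghsr, Lepr, Ghrl, Ppy and Hhex, with Pyy and Sst at 0. There the ranges of Lepr and Ghrl overlapped, as did those of Ppy and Hhex. In βTC6 the order was Sst, Rbp4, Ppy, Lepr, Ghrl, Pyy, Ghsr and Hhex, where the ranges of Sst and Rbp4 overlapped, those of Lepr, Ghrl and Pyy overlapped each other, and that of Ghrl also spanned that of Ghsr. The 8 genes therefore did not share 1 pattern, and delta cell genes stood higher in either line.

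The genes nearest to the other called members by the same distance were Papss2, Adh1 and Ppp1r1a for Sst (0.53, 0.58 and 0.78). For Rbp4 they were Tpi1, Mif and Aldoa (0.997, 1.42 and 1.92), and for Ghsr they were Tmem136, Mkrn3 and Fibcd1 (0.21, 0.25 and 0.27). Papss2, which encodes an enzyme of sulfate activation, had FPKM of 207, 205 and 245 in βTC6 and at most 0.16 in αTC1.

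The second comparison asked whether chromatin accessibility near these genes differed between the lines. The 18 peaks lay near 6 genes: 9 near Ghsr, 3 near Sst, 2 each near Rbp4 and Hhex and 1 each near Ppy and Pyy, and none was annotated to Ghrl or Lepr. The values are TMM-normalized read counts, tested with limma on log2(value + 1) over 5 libraries per line. With the thresholds used for genes, 4 of the 18 peaks were called, 3 higher in βTC6 and 1 in αTC1, next to 18.3% of all 65053 peaks (12.9% higher in βTC6 and 5.38% in αTC1). At any fold change 13 of 18 peaks passed the FDR, next to 78.0% of all peaks, and 12 had groups that did not overlap, next to 63.9%. The shares among these peaks were thus close to the background. The median log2 fold change was 0.05 over the 18 peaks and 0.00 over all peaks. Quantile normalization changed the split of all calls from 8409 higher in βTC6 and 3502 in αTC1 to 5655 and 5126, and left the calls on these 18 peaks at 3 and 1.

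**Figure D3:**
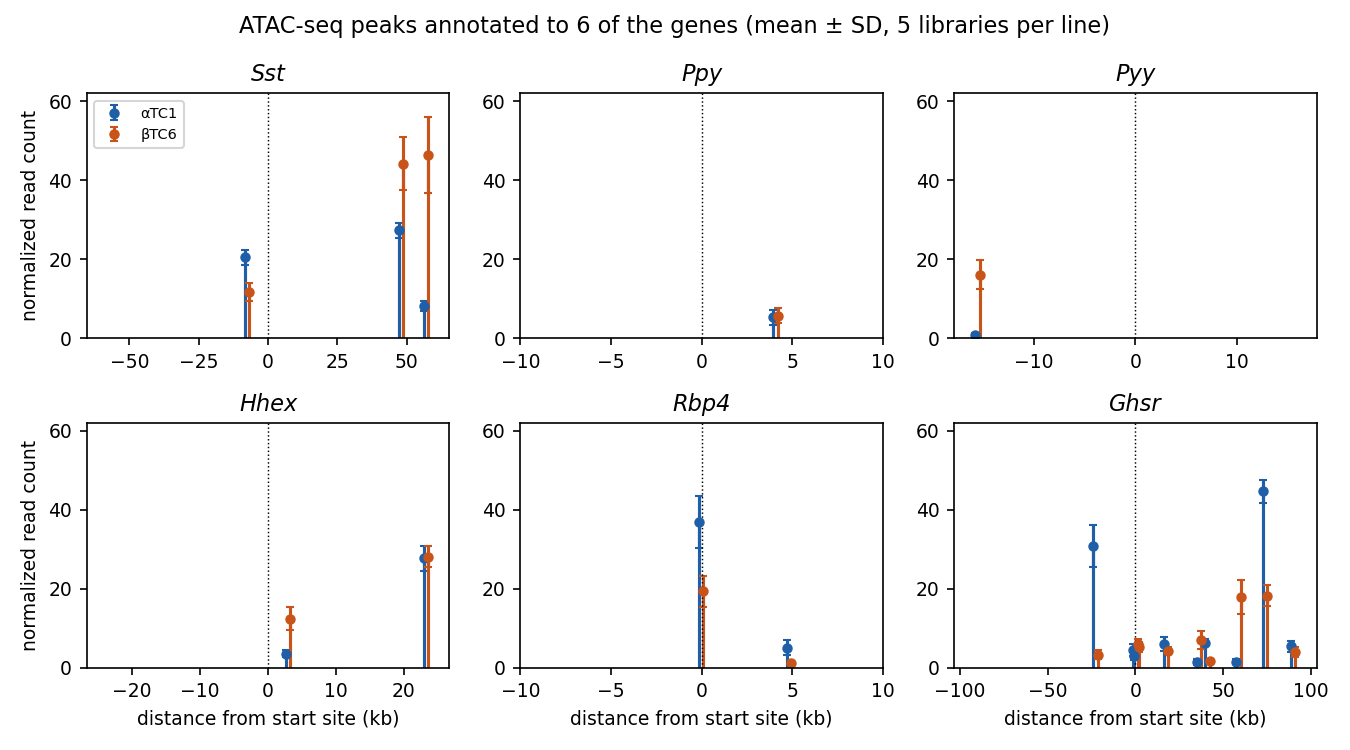
Normalized read count (mean ± SD over 5 libraries) of each peak in αTC1 (blue) and βTC6 (orange) against its distance from the annotated start site in kb, with the dotted line at the start and 1 panel per gene. Peaks lie at the starts of Rbp4 and Ghsr, and the called peaks of Sst, Pyy and Ghsr lie 15.6 kb to 58.7 kb away.

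Near Sst, the called peak lay 56.9 kb downstream of the start (chr16:23833552-23834551, intergenic). Its normalized read counts were 9.80, 8.71, 6.76, 8.33 and 7.37 in αTC1 and 41.2, 39.4, 43.8, 44.9 and 63.3 in βTC6. The groups did not overlap, and βTC6 was 5.68-fold higher (log2 fold change 2.36, SE 0.14, limma adjusted p = 7.05e-12). A second intergenic peak 48.0 kb downstream (chr16:23842500-23843431) was open in both lines, at 27.4 ± 1.93 in αTC1 and 44.2 ± 6.67 in βTC6 (0.66, SE 0.11, limma adjusted p = 9.995e-06). The peak nearest to the start, 7.72 kb upstream (chr16:23897899-23899395), went the other way, at 20.5 ± 1.91 in αTC1 and 11.7 ± 2.34 in βTC6 (-0.78, SE 0.14, limma adjusted p = 5.04e-05). Neither of these passed the fold threshold, and the groups of neither overlapped.

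Next to Ppy and Pyy, 1 of the 2 peaks was called. The Pyy peak, 15.6 kb upstream of its start (chr11:101984422-101984904, intergenic), had 0.28, 0.56, 1.65, 0.68 and 0.87 normalized reads in αTC1 and 18.7, 12.3, 18.6, 18.8 and 11.7 in βTC6. These αTC1 values stood for 2 to 11 reads, and the βTC6 values for 60 to 138. There was no overlap between the lines, and βTC6 was 19.8-fold higher (log2 fold change 3.25, SE 0.24, limma adjusted p = 1.95e-10). The Ppy peak, 4.06 kb downstream of its start (chr11:101958372-101958738, intergenic), had 5.35 ± 1.90 in αTC1 and 5.72 ± 1.94 in βTC6, and its groups overlapped (0.08, SE 0.25, limma adjusted p = 0.770). The only peak annotated to Ppy thus showed no detectable difference, whereas the RNA differed. Annotation went by nearest gene, and 9 consensus peaks of any annotation lay within 50 kb of the Ppy start. The called Pyy peak was among them, so accessibility around Ppy is not described by its own peak alone.

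Near Ghsr, called peaks went in both directions. The peak 22.8 kb upstream (chr3:27246963-27248006, intergenic) had 36.3, 23.2, 32.8, 28.1 and 34.5 in αTC1 and 4.69, 4.10, 3.38, 2.85 and 1.78 in βTC6. It was 9.22-fold higher in αTC1, with groups that did not overlap (log2 fold change -2.90, SE 0.19, limma adjusted p = 3.86e-11). The peak 58.7 kb downstream (chr3:27328608-27329431) had 1.68, 1.40, 2.25, 0.55 and 1.73 in αTC1 and 17.9, 15.0, 13.2, 19.8 and 24.2 in βTC6. It was 11.8-fold higher in βTC6, again without overlap (log2 fold change 2.93, SE 0.23, limma adjusted p = 5.39e-10). This peak lies in an intron of Fndc3b, as do those 73.7 kb and 89.9 kb downstream, and Fndc3b itself had 12.3 ± 1.05 FPKM in αTC1 and 12.2 ± 2.46 in βTC6 (edgeR log2 fold change 0.05, SE 0.14, adjusted p = 0.779). The highest peak, 73.7 kb downstream (chr3:27343551-27344405), had 44.8 ± 2.92 in αTC1 and 18.3 ± 2.62 in βTC6 (-1.25, SE 0.10, limma adjusted p = 1.49e-09). The peak at the start itself (chr3:27269972-27270520, overlapping an exon) was low in both lines, at 4.61 ± 1.49 and 6.11 ± 1.13, and its groups overlapped (0.37, SE 0.22, limma adjusted p = 0.133). A peak in an exon 0.694 kb downstream (chr3:27270720-27271213) had 2.92 ± 1.05 in αTC1 and 5.23 ± 1.26 in βTC6, with overlapping groups (0.68, SE 0.23, limma adjusted p = 0.0116), and so was higher in the line with less Ghsr RNA. Of the other 4 Ghsr peaks, all with mean values between 1.46 and 7.08, those at 36.1 kb and 41.1 kb downstream had groups that did not overlap and passed the FDR. The first (chr3:27306126-27306664, intergenic) had 1.46 ± 0.79 in αTC1 and 7.08 ± 2.24 in βTC6 (1.73, SE 0.25, limma adjusted p = 2.98e-06). The second (chr3:27311166-27311516, intergenic) had 6.33 ± 0.87 and 1.84 ± 0.45 (-1.38, SE 0.21, limma adjusted p = 4.40e-06), in the opposite direction. None of these 3 peaks passed the fold threshold.

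Rbp4, like Ghsr, had a peak at its start, and that of Rbp4 was the higher one. The Rbp4 peak (chr19:38198660-38199999, overlapping an exon), which holds the Rbp4 promoter sequence shown above, had 33.8, 45.5, 35.5, 41.2 and 28.9 in αTC1 and 22.01, 20.9, 22.2, 18.8 and 12.9 in βTC6. The groups did not overlap, and αTC1 was 1.91-fold higher (log2 fold change -0.91, SE 0.14, limma adjusted p = 9.50e-06), under the fold threshold. A weaker peak in an Rbp4 intron, 4.80 kb downstream (chr19:38194320-38194674), had 5.12 ± 1.90 in αTC1 and 1.10 ± 0.51 in βTC6 (-1.52, SE 0.25, limma adjusted p = 1.37e-05). Both peaks thus had the direction of the Rbp4 RNA.

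Hhex, whose RNA was nearly absent in both lines, had a peak that was higher in βTC6. This peak overlaps an Hhex exon (chr19:37512000-37512531), 2.94 kb downstream of the start that the authors' annotation used. Its values were 4.48, 2.25, 4.06, 3.68 and 3.61 in αTC1 and 15.2, 12.9, 15.0, 11.6 and 7.79 in βTC6, and the groups did not overlap (log2 fold change 1.54, SE 0.21, limma adjusted p = 1.38e-06, under the fold threshold). The second peak, 23.2 kb downstream (chr19:37531959-37533129, intergenic), was open in both lines at 27.7 ± 3.08 and 28.2 ± 2.72, and its groups overlapped (0.02, SE 0.11, limma adjusted p = 0.858).

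Within replicates 1 to 3 the log2 fold changes of the 4 called peaks were 2.18 for Sst, 3.31 for Pyy, and -2.63 and 2.56 for Ghsr. Within replicates 4 and 5 they were 2.62, 3.16, -3.30 and 3.48, and all 4 were called within either group of libraries. Both groups took part in the calls on all libraries, so calling the peaks again is not independent support. With a pseudocount of 5 in place of 1 only the upstream Ghsr peak was called (-2.10), and those of Sst (1.95), Pyy (1.84) and Ghsr downstream (1.81) fell below the fold threshold.

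The central 200 bases of the 4 called peaks are shown on the plus strand, with the same motifs in capitals, because these are the regions that differed most between the lines. The windows are chr16:23833952-23834151 for Sst, chr11:101984564-101984763 for Pyy, and chr3:27247385-27247584 and chr3:27328920-27329119 for the upstream and downstream peaks of Ghsr.
Sst downstream peak: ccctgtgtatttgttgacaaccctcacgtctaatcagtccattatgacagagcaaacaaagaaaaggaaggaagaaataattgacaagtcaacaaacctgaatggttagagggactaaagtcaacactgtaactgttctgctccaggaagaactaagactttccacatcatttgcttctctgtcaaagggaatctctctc
Pyy upstream peak: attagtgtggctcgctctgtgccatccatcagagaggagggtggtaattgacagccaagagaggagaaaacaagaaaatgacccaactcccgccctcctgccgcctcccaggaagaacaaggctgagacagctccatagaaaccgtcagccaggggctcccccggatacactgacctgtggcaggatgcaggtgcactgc
Ghsr upstream peak: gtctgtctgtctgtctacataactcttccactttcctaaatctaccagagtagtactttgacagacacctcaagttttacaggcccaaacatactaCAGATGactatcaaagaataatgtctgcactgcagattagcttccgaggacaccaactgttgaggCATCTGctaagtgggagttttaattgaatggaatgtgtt
Ghsr downstream peak: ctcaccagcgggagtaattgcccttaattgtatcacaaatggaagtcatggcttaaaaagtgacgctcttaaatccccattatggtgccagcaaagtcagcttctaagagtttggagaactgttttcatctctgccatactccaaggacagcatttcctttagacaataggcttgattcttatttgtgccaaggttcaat
The upstream Ghsr peak, called higher in αTC1, held 2 E-boxes, and 23.2% of the central windows of all consensus peaks held at least 1. The other 3 windows, all called higher in βTC6, held none of the 5 motifs. Their GC content was 40.5% for Sst, 57.0% for Pyy and 41.5% for the downstream Ghsr peak, next to a median of 48.5% over all peaks.

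Most of these genes had no peak at their start. Within 500 bp of an annotated start, a window chosen after the data had been seen, a consensus peak was found for Rbp4 and Ghsr and for none of the other 6 genes. The nearest peak edge was 3895 bp from the start of Ppy, 4623 bp from that of Hhex, 6969 bp from that of Sst and 10408 bp from that of Pyy. It was 20376 bp away for Ghrl and 47112 bp for Lepr, in peaks annotated to Sec13 and Leprot. These distances run from GENCODE gene starts. For Hhex the authors' annotation used another start, 2.94 kb from the centre of the Hhex exon peak. Pyy, Ghrl, Hhex and Lepr were below the expression filter, and the share with a peak among such genes was not computed. Of the tested members, Rbp4 and Ghsr had a peak within 500 bp, and Sst and Ppy had none. Among the 12184 tested genes with an annotated start, 93.6% had such a peak, and among the 75 genes called higher in βTC6 with a mean FPKM of at least 100 it was 85.3%. Sst was among the 11 of these 75 without such a peak, and so was Papss2, the gene nearest to Sst in level. Whether reads lay at these starts below the level of a consensus peak was not analysed here.

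The third comparison asked how closely the 4 called peaks followed the share of αTC1 cells in the 9 mixtures. These libraries were not used to call the peaks, but they hold cells of the same lines. The calls therefore already set the direction of each trend, and the p-values are no independent support for the calls. The Sst peak fell from 55.7 at 10% αTC1 to 26.01 at 50% and 15.6 at 90% (Pearson's r = -0.95, exact permutation p = 9.92e-05, adjusted over the 4 peaks p = 0.000169; Spearman's rho = -0.93, exact permutation p = 0.00075). The Pyy peak fell from 9.55 through 7.45 to 1.42 at the same shares (r = -0.96, exact permutation p = 0.000127, adjusted p = 0.000169; rho = -0.93, exact permutation p = 0.00075). The downstream Ghsr peak fell from 19.1 through 13.9 to 2.64 (r = -0.95, exact permutation p = 0.000209, adjusted p = 0.000209; rho = -0.92, exact permutation p = 0.00131). The upstream Ghsr peak rose from 4.44 through 17.4 to 30.3 (r = 0.95, rho = 1, exact permutation p = 5.51e-06 for both, the smallest possible with 9 mixtures, adjusted p = 2.20e-05). Without the mixtures at 10% and 90%, r was -0.97, -0.96, -0.91 and 0.92 in the same order, with exact permutation p between 0.000397 and 0.00437. Each peak thus moved in the direction set by its difference between the pure lines.

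**Figure D4:**
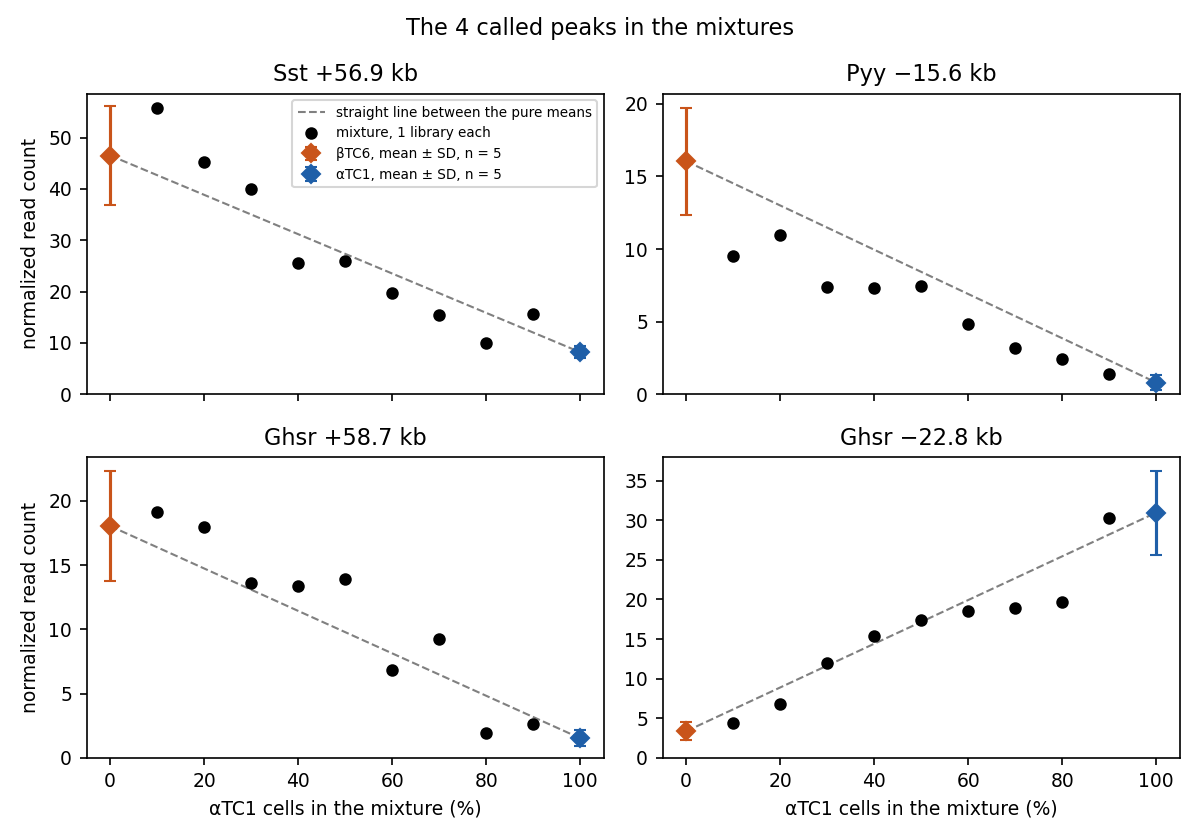
Normalized read count of the 4 called peaks against the percentage of αTC1 cells, with black points for the 9 mixtures (1 library each), diamonds for the pure lines (mean ± SD, n = 5) and a dashed line between the pure means. The upstream Ghsr peak climbs with αTC1 from 4.44 to 30.3, the other 3 peaks descend, and the Pyy peak lies below its dashed line in all 9 mixtures.

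The mean absolute distance of the mixtures from a straight line between the pure means was 2.04 normalized reads for the upstream Ghsr peak, 2.22 for the downstream one, 2.37 for Pyy and 5.42 for Sst. The Pyy peak lay below the line in all 9 mixtures, by at most 4.98 at 10% αTC1, where the βTC6 libraries had an SD of 3.69. The largest distance for Sst was 12.99, also at 10% αTC1, next to an SD of 9.62 in βTC6.

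The last comparison placed the 8 genes among related ones. Of 9 receptors for somatostatin and for peptides of the neuropeptide Y family, 3 were tested and all 3 called, 2 higher in βTC6 and 1 in αTC1, next to 10.2% and 4.08% of all genes tested. Sstr3 had 2.90 ± 0.03 FPKM in αTC1 and 22.5 ± 3.35 in βTC6 (edgeR log2 fold change 3.01, SE 0.12). Sstr5 was listed at 0 in αTC1 and had 3.90 ± 1.48 in βTC6. Npy1r, a receptor for neuropeptide Y and peptide YY, was higher in αTC1, at 4.06 ± 0.40 next to 0.04 ± 0.03 (-6.44, SE 0.32). The other 6 receptors were below the filter, with Sstr2 (0.23 and 0.59 FPKM) and Sstr1 (0 and 0.42) the highest of them. Sstr5 passed the FPKM filter only through βTC6 and Npy1r only through αTC1, so the filter set the direction in which they could differ.

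Of 10 genes for the processing and breakdown of prohormones, 9 were tested, 4 were called higher in βTC6 and none higher in αTC1, next to 10.2% and 4.08% of all genes tested. Of the 4, Pcsk1, Dpp4 and Qpct passed the filter only through βTC6, which fixed their direction. Pcsk1, a prohormone convertase, rose from 0.15 ± 0.10 to 84.8 ± 38.3 FPKM (log2 fold change 9.13) and Cpe, a carboxypeptidase, from 252 ± 6.58 to 1517 ± 356 (2.65). Dpp4, a peptidase that trims peptide YY, rose from 0.0033 to 10.1 ± 3.33 and Qpct, a glutaminyl cyclase, from 0.13 ± 0.05 to 31.2 ± 4.12. Among those not called, Pcsk2, the convertase that cuts proglucagon, had 783 ± 40.9 in αTC1 and 475 ± 80.5 in βTC6 (-0.66), and Scg5 had 261 ± 5.04 and 447 ± 69.8 (0.84). Pam, which amidates peptides such as PYY, had 379 ± 16.3 and 109 ± 33.3 (-1.80, edgeR adjusted p under the FDR but the fold below the threshold). Mboat4, which acylates ghrelin, had 0.03 and 0.09 FPKM, below the filter.

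Further genes used as markers of delta, PP and epsilon cells were looked at next, against the 10.2% of all tested genes called higher in βTC6 and 4.08% in αTC1. Of the 9 other delta cell genes analysed, 5 were tested and 4 called, all higher in βTC6: Ptprz1 (0.07 and 17.7 FPKM), Ffar4 (0.85 and 20.2), Spock3 (0.0033 and 4.36) and Frzb (0.02 and 4.33). All 4 passed the filter only through βTC6, as did Spock1 and Id4 of the PP list, so their direction followed from the filter. Casr, the calcium-sensing receptor, had 1.55 ± 1.01 and 5.24 ± 2.17 (1.77) and was not called. Of the 9 other PP cell genes analysed, 7 were tested, with Spock1 (0.01 and 48.2 FPKM), Slitrk6 (3.55 and 20.7) and Id4 (0.09 and 2.75) called higher in βTC6 and Thsd7a (17.1 and 1.60) in αTC1. Etv1 (345 and 121, -1.41), Meis2 (6.19 and 5.26) and Chn2 (1.19 and 0.85) were not called, and Abcc9, below the filter, had 0.78 ± 0.20 and 0.04 ± 0.02. Of 5 other epsilon cell genes, only Acsl1 was tested (16.0 and 9.18, -0.66) and it was not called.

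Peptide hormone genes known mainly from gut and nerve were also transcribed in βTC6, and Sct, Npy and Cck were above Ppy in every βTC6 library. Of 11 such genes 7 were tested and all 7 were called higher in βTC6, next to 10.2% of all genes tested. Of these, Sct, Cck, Gal, Gast and Tac1 passed the filter only through βTC6, so they could only be higher there. Sct, the secretin gene, had 0.16 ± 0.06 FPKM in αTC1 and 2424 ± 682 in βTC6, Npy had 3.79 ± 1.10 and 1354 ± 223, and Cck had 0.07 ± 0.07 and 823 ± 66.7. Gal (36.3 ± 8.14 FPKM in βTC6), Cartpt (32.2 ± 5.29), Gast (18.0 ± 8.31) and Tac1 (1.67 ± 0.35) were the others. Of those below the filter, Nts (0.73), Gip (0.34) and Cort (0.18), the paralog of Sst, were the highest in βTC6, and Cort had 0.60 in αTC1. These genes had passed a filter on level, so the count of 7 describes hormones with a level in at least 1 line. The lists were chosen with earlier results of these data known.

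**Figure D5:**
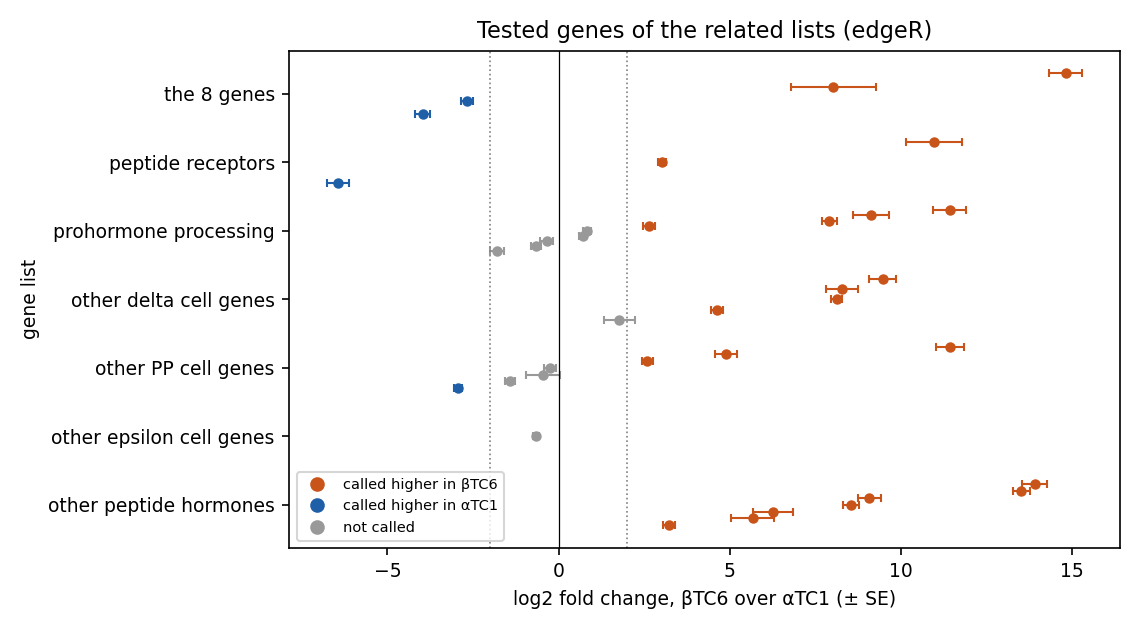
edgeR log2 fold change (βTC6 over αTC1, ± SE) of each tested gene in the list of 8 and in the related lists, orange for genes called higher in βTC6, blue for αTC1, grey for genes not called and dotted lines at the fold threshold of 2 in each direction. Genes that passed the filter through only 1 line could lie only on the side of that line, as did 5 of the 7 other peptide hormones and, of the list of 8, Sst, Ppy and Ghsr.

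Of 16 acinar, duct, endothelial, stromal and immune markers 12 were below the filter, and the summed FPKM of the 16 lay between 7.37 and 8.65 in αTC1 libraries and between 30.3 and 52.8 in βTC6 libraries. Krt7, a keratin of duct cells, was called higher in βTC6 (1.42 ± 0.08 and 35.7 ± 12.4 FPKM), and Cela1 (3.65 and 0.41) and Col1a2 (1.58 and 0.13) were called higher in αTC1, through which alone they passed the filter. The other duct markers, Krt19 and Cftr, were at 0 and 0.04 FPKM in βTC6, and Col3a1 was listed at 0 in every library. Of the immune markers, Cd68 had 1.08 ± 0.14 FPKM in αTC1 and 2.11 ± 0.08 in βTC6 (edgeR log2 fold change 1.09, SE 0.21, adjusted p = 0.00136, under the fold threshold), and Ptprc and Cd3e were at 0.01 FPKM in βTC6. Krt7 alone made up most of the βTC6 sum, with 49.9, 26.7 and 30.6 FPKM of 52.8, 30.3 and 33.5 in replicates 1, 2 and 3. The part of these markers in the differences above was not tested.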

How the data were processed

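Cultured αTC1 and βTC6 cells were profiled by RNA-seq (3 libraries each) and ATAC-seq (5 each and 9 mixtures). Per the submitters' processing notes and the methods, the deposited ATAC-seq signal is a TMM-normalized read count per consensus peak on mm9, made by the authors with Trimmomatic 0.32, BWA 0.7.9a, Picard 1.95, MACS2 2.1.0 and DiffBind 2.2.5, with nearest genes from HOMER 4.6. The expected counts and the FPKM values, given to 2 decimals, were deposited by the authors from RSEM 1.2.12 after Trim Galore and Bowtie 2. The authors' class of each peak between the lines was not used, and 0 sample columns were left without a sample. All ATAC-seq values (100%) were whole multiples, within 0.02, of the value of 1 read, which gave back reads for an edgeR alternative.

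Expected counts were rounded and tested with edgeR 4.0.16 (R 4.3.3) with TMM in place of the authors' spike-in normalization (RUVSeq), since that package was not at hand. The SE of an edgeR log2 fold change is its absolute value divided by the square root of the quasi-likelihood F statistic. It is thus an approximate value, above all where counts are near 0. ERCC spike-ins, 0.436% to 0.971% of the counts, stayed out of library sizes and tests. Peaks were tested with limma 3.58.1 (trend) on log2(value + 1). DESeq2 1.42.0 served as an alternative. The edgeR and limma fits were tested on simulated data, and the other steps were run in Python 3.11.15. Counting intervals and the floor of 3 counts cover counting error only, and the 9 mixtures held 5277983 to 7294832 reads in peaks. Peaks and genes were placed with GENCODE vM1 on mm9, and every peak ended within its mm9 chromosome.

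The members and lists were chosen with earlier results of these data known. All 8 genes are named with each library's value. Named peaks are those called, those nearest to a start and those highest in mean, with 1 more Rbp4 peak, 3 more Ghsr peaks, Abcc9, Fosb, Mboat4 and the other cell type markers named after their values were seen. Of the lists, called genes and up to 3 more by FPKM are named, the 9 genes counted for the delta list leave out 1 gene that is not reported here, and Sertm1 of the PP list was not analysed here. For each called member the 3 nearest in level are named, out of those reaching 1 FPKM in every library of the higher line. Alternatives covered scaling, filters, pseudocounts, tests, blocks, groups of libraries and leaving out each library.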

Additional observations from a re-analysis of the deposited data

Results flagged for a closer look

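In the groups of 5 ATAC-seq libraries, a single library was far from the rest for 2 of the 36 combinations of peak and line, and chance alone flags about 1 in 20. Both were βTC6 replicate 5, the deepest library. At the Sst peak 56.9 kb downstream it had 63.3 normalized reads, next to 39.4 to 44.9 in the other 4 libraries, and at the Ghsr peak 73.7 kb downstream it had 22.9, next to 16.7 to 18.0. Without this library the log2 fold changes were 2.24 for the Sst peak, still called, and -1.33 for the Ghsr peak, not called in either fit.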

How the results depend on the processing

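The count of called genes was 4 with RLE or spike-in scaling, DESeq2, log2(FPKM + 0.1) and a fold threshold of 1, 3 on log2(FPKM + 1), 6 without the FPKM filter and 2 with FPKM of at least 5, where Ppy and Ghsr were not tested. The count of called peaks was 4 with a pseudocount of 0.5, a mean of at least 5 and quantile normalization, 6 with edgeR on reads or replicates 4 and 5 (adding the Ghsr peak 36.1 kb downstream, 2.29 and 2.19, and the Rbp4 intron peak, -2.28 and -2.03), 9 at a fold threshold of 1 and 1 with a pseudocount of 5, which shrinks low values. At a fold threshold of 1, 31848 of all 65053 peaks and 3848 of all 12195 genes tested were called. Within replicates 4 and 5, at the threshold of 2, 13647 of all peaks were called. Leaving out each library in turn gave 4 genes and 4 peaks throughout (4 to 4). All 4 called peaks followed the mixtures on the log2 scale, by Spearman's rho and without the outer mixtures.

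The replicate numbers did not pair the libraries (same-number correlations of deviations from -0.05 to 0.02 in RNA-seq and -0.0019 to 0.069 in ATAC-seq), nor did every library correlate best with its own number, so the samples share only a number. With the replicate block, 4 genes and 4 peaks were called, and no call on these genes or peaks changed.

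Uncalled values near 0 changed sign under quantile normalization for the Ghsr peak at the start (-0.0071) and the Ppy peak (-0.31), and within replicates 1 to 3 for the Hhex peak 23.2 kb downstream (-0.087). Leaving out single libraries moved the last 2 between -0.056 and 0.234 (Ppy) and between -0.024 and 0.081 (Hhex), and the cause was not tested. Over all genes, 1743 calls became 3472 without the FPKM filter, 899 with FPKM of at least 5 and 979 on log2(FPKM + 1). Over all peaks, 11911 calls became 19533 with edgeR and 2487 with a pseudocount of 5.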
